A study of Mus musculus with 2 samples.

Results

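The cells described here were 380 peritubular capillary endothelial cells, 110 from a control and 270 from a haplodeficient kidney library, out of 19478 cells kept in both (9452 and 10026). They were chosen by measured transcripts. Barcodes were kept from 500 unique molecular identifiers (UMIs, each standing for 1 captured transcript) and 200 genes upward, unless mitochondrial genes held more than 50% of their UMIs. A gated endothelial cell had at least 3 UMIs of Cdh5, Pecam1, Egfl7 and Emcn together and none of Ptprc (leukocytes) or Pdgfrb (pericytes). A member also had at least 1 UMI of Rgcc, Aplnr and Nav3 together, under 2 of Ehd3 (glomerular capillaries), and none of Slc14a1, Gkn3, Stmn2, Col8a1, Selp or Sele, which mark vasa recta, arteries and activated venules. These 16 genes fixed the choice. Their levels are not given as results, except within sums of marker lists, and they were left out of every count of genes.

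Peritubular capillaries are the fenestrated vessels that wrap the tubules, take up what the tubules reabsorb and supply them with oxygen. Their fenestrae are closed by diaphragms built from PLVAP. At rest such cells carry flow-induced and bone morphogenetic protein signalling genes (Klf2, Id1, Tek), whereas sprouting vessels turn on tip-cell genes (Esm1, Apln, Angpt2, Dll4) and lay down basement membrane, and loss of these capillaries after ischaemia is a known feature of kidneys that scar.

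The tissue was mouse kidney taken on day 14 after clamping of the artery of 1 kidney, from animals that had received 4 tamoxifen injections after the injury in both groups. The control genotype is given as Cre-, and the other as Cdh5-CreERT2; Phd3f/+, in which the promoter of Cdh5, active in endothelium, drives a tamoxifen-inducible Cre that acts on 1 floxed allele of Phd3 (Egln3). The labels do not give the age or sex of the mice, the number of animals in a library, or whether the control carried the floxed allele, and both libraries are in batch 1. There was 1 library per group, so no test between groups was possible. Ranges in parentheses are 95% confidence intervals, and they cover the error of counting alone.

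The control library was deeper per cell (median 9160 against 5861.5 UMIs in kept cells) and had a higher mitochondrial share (median 10.2% against 2.72%). Among kept cells 28 barcodes occurred in both libraries, 1 of them a control member, and no barcode was a member in both. Doublets were scored with Scrublet and left in.

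Many members carried transcripts of tubule cells. Of 8 general epithelial genes (Epcam, Cdh16, Cdh1, Pkhd1, Krt8, Krt18, Pax8 and Pax2), at least 3 UMIs were found in 41 of 110 control members, 37.3% (28.2 to 47.0), and in 52 of 270 haplodeficient members, 19.3% (14.7 to 24.5). These cells were deep, with a median of 27822 and 15983 UMIs against 2878 and 3110.5 in the other members, and they held 80.4% and 55.5% of all members' UMIs. Scrublet called 17 of the 41 and 25 of the 52 as doublets, against 2 of 69 and 4 of 218 of the others. Other gated endothelial cells had a like share, 36.1% and 19.2%. The plot of epithelial UMIs by depth shows the members as a low band and a separate rising cloud.

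**Figure D1:**
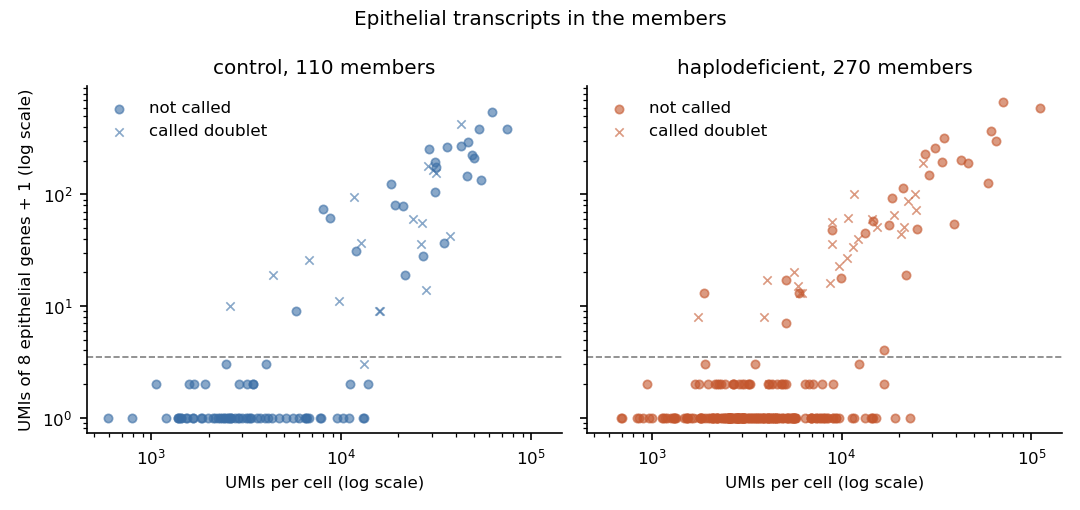
UMIs of 8 epithelial genes plus 1 (y axis, log scale) against total UMIs per cell (x axis, log scale) for each of the 110 control and 270 haplodeficient members, with crosses for cells called doublets by Scrublet. The dashed line divides the 69 and 218 members with at most 2 epithelial UMIs, below it, from the 41 and 52 with at least 3.

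Because the tubule-bearing cells supplied most of the control reads, results are given mainly for the 287 members with at most 2 epithelial UMIs, called epithelial-poor (69 control, 218 haplodeficient, with 284626 and 923881 UMIs). That limit was chosen after the data were seen. In the epithelial-poor members the 8 epithelial genes came to 56.2 counts per 1000000 (CPM, summed UMIs scaled to 1000000) and 42.2 CPM. The 10 general endothelial markers came to 6447 CPM (6155 to 6749) and 7211 CPM (7039 to 7386). They include Cdh5, Pecam1, Egfl7 and Emcn, so part of this level was fixed by the gate. Over all members the same 10 were at 1663 and 3713 CPM, a wider gap. The median mitochondrial share was 3.62% and 2.22% in epithelial-poor members.

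Of the label's markers, Rgcc and Aplnr helped choose the cells, so only Plvap is described for the epithelial-poor members. Plvap, which the rule did not use, had 1525 CPM among control members (interval 1385 to 1675, 434 UMIs), against 1887 CPM among haplodeficient members (1799 to 1977, 1743 UMIs), and a Plvap UMI was seen in 92.8% and 94.95% of them. After thinning every cell to 1000 UMIs the shares were 79.1% (67.4 to 88.1) of 67 cells and 79.1% (73.0 to 84.4) of 211, with 2 and 7 shallower cells left out. In leukocytes, which should lack the gene, the thinned shares were 0% (0 to 0.286) and 0.0645% (0.00781 to 0.233). The 9 glomerular markers, of which the rule holds Ehd3 under 2 UMIs per cell, summed to 267 and 289 CPM with Sost and Gata5 at 0. The 6 lymphatic ones summed to 28.1 and 6.49 CPM with Ccl21a and Mmrn1 at 0. The 12 arterial markers, of which the rule sets Col8a1, Stmn2 and Gkn3 to 0, summed to 864 and 845 CPM. The 6 podocyte markers summed to 706 and 838 CPM (64.7 and 180.4 CPM in free RNA), with Nphs1 and Wt1 at 0 and Podxl, which endothelium also expresses, at 516 and 601 CPM. The 5 red cell markers differed between the libraries, at 7.03 CPM (0.851 to 25.4) and 174 CPM (148 to 203), and their part in the results was not tested. The 12 proximal tubule markers differed between the libraries even here, at 1279 CPM (1151 to 1417) and 40.0 CPM (28.2 to 55.2), beside 17586 and 1403 CPM in the free RNA of barcodes with 1 to 100 UMIs. An estimate of free RNA from such markers was 7.65% and 4.56% of the epithelial-poor members' UMIs. These were medians over 25 and 48 markers of other cell types, whose single values ran from 0% to 23.3% and from 0% to 1443%. Expected free-RNA parts of single genes given below rest on these medians and share that uncertainty.

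Members were a larger part of the gated endothelium in the haplodeficient library. They were 110 of 523 gated cells, 21.03% (17.6 to 24.8), in the control and 270 of 889, 30.4% (27.4 to 33.5), in the haplodeficient library, a difference of 9.34 percentage points (4.62 to 13.9). Among epithelial-poor gated cells the shares were 20.7% (16.5 to 25.5) of 333 and 30.4% (27.02 to 33.9) of 718, a difference of 9.64 points (3.95 to 14.9). The gate reads depth, which differed between the libraries, and with a UMI minimum set from each library's own barcodes (5719 and 6989) the difference for all members was 3.198 points. Gated cells with no UMI of the 3 including or 6 excluding genes and under 2 of Ehd3, which fall in no class, were 30.8% of control and 22.5% of haplodeficient gated cells.

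Plvap varied at the edges of the rule, where values are over all cells, tubule-bearing ones included. Members with just 1 UMI of the 3 including genes had 181 and 147 CPM of Plvap in the control and haplodeficient library, those with 2 or more (65.8% and 83.2% of them epithelial-poor) had 431 and 1277 CPM, and cells that failed for having none had 32.3 and 119 CPM. Cells just short of the endothelial gate, with 2 UMIs of its genes, numbered 24 and 20 and had 7.39 and 33.4 CPM of Plvap. Members with 1 Ehd3 UMI had 396 and 1037 CPM of Plvap, and the 5 and 7 cells with 2, left out by the rule, 714 and 1141 CPM.

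Against the other gated cells of the same library, epithelial-poor members had more Plvap, MHC class II transcripts and some other genes. A gene was counted where its log2 ratio, taken after adding 5 CPM to each side, was at least 1 in size with non-overlapping intervals in both libraries. Of 3359 genes with enough counts (a mean of at least 50 CPM and 30 UMIs over both sides), 29 were higher in members (0.863%) and 57 lower (1.70%). The cells were chosen by genes that vary with these, so the list is a description. Plvap was at 1525 against 342 CPM in the control and 1887 against 675 CPM in the haplodeficient library (log2 ratios 2.14 and 1.48). Ccdc85a (2.36 and 1.70), the atypical chemokine receptor gene Gpr182 (1.95 and 1.55), the protease gene Tll1 (2.22 and 1.62), the homeobox gene Irx3 (2.15 and 1.55), the adenosine deaminase gene Ada (2.62 and 1.46) and 2610307P16Rik (2.37 and 1.44) were also higher in members. So were the MHC class II genes H2-Eb1 (1.64 and 1.63) and H2-Ab1 (1.502 and 1.61) and their chaperone Cd74 (1.81 and 1.58).

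Lowest in members were genes of vasa recta and arteries. The water channel gene Aqp1, a descending vasa recta gene, was at 10.5 against 1539.7 CPM in the control and 68.2 against 766 CPM in the haplodeficient library. The prostaglandin-degrading enzyme gene Hpgd (-5.08 and -4.24), the arterial matrix gene Mgp (-4.19 and -3.67), the tight junction gene Cldn5 (-3.78 and -2.92), the lymphatic growth factor gene Vegfc (-4.73 and -2.81) and the Wnt-responsive transcription factor gene Lef1 (-3.88 and -3.01) were low in members of both libraries. Htra1, Ptn, Egfl8 and Pde3a complete the 10 lowest, at -3.25 and -3.30, -4.85 and -3.07, -3.45 and -2.72 and -3.94 and -2.71. Over all members, tubule-bearing ones included, just 2 genes were higher in both libraries (0.0569% of 3517), Plvap and the tubule calcium channel gene Trpv5, and 22 were lower (0.626%).

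**Figure D2:**
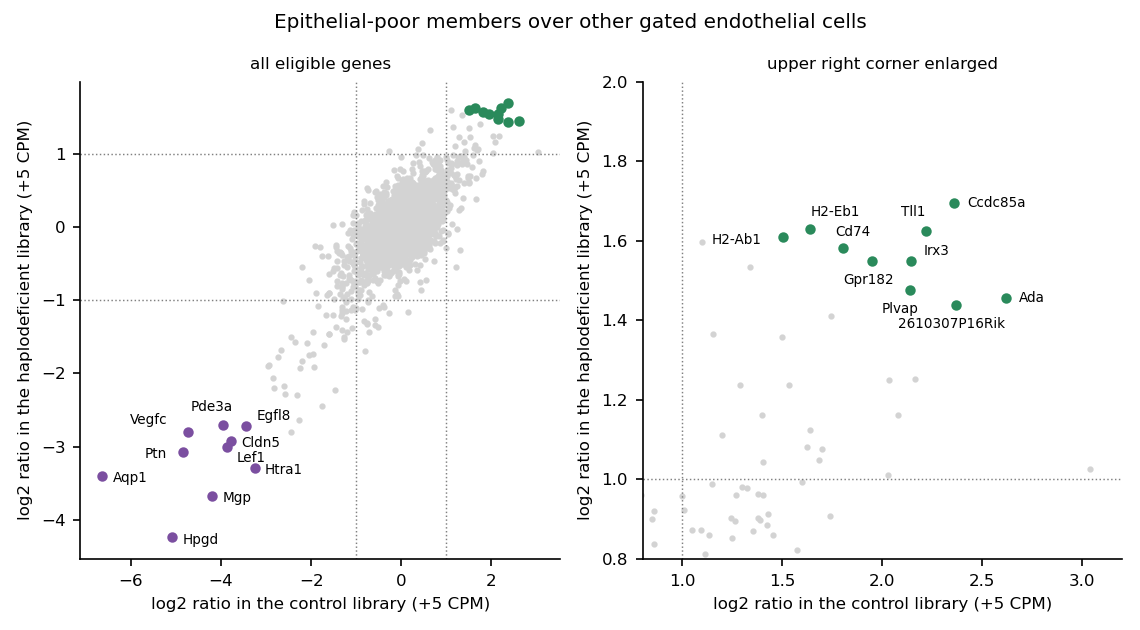
Log2 ratio of epithelial-poor members over other epithelial-poor gated cells, in the control library (x axis) and in the haplodeficient library (y axis), for each eligible gene, with the corner of high values enlarged at right. The 10 named genes on the high side lie above 1 in both libraries and the 10 named low ones, such as Hpgd and Aqp1, below -2 in both.

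The classes that the rule excludes had other profiles. Cells with Selp or Sele, selectins of activated venular endothelium (25 and 80 epithelial-poor cells), had as much Plvap as members or more (2470.4 and 2357 CPM in the control and haplodeficient library, against 1525 and 1887 CPM). Several other genes that were higher in members than in other gated cells were at like or higher levels there too, among them Cd74 (713 and 875 CPM against 467 and 794 CPM), H2-Eb1 (235 and 359.9 CPM against 155 and 344 CPM), Gpr182 (154 and 88.9 CPM against 94.9 and 82.3 CPM), Tll1 (235 and 133 CPM against 144 and 111 CPM) and Irx3 (202 and 231 CPM against 179 and 234 CPM). The Selp or Sele cells had more Vcam1, a leukocyte adhesion gene (2203 and 971 CPM against 204 and 233 CPM), and more Igf1 (786 and 424 CPM against 253 and 227 CPM). Igfbp3 was low there, at 32.4 and 189 CPM, against 516 and 359 CPM in members. Glomerular cells with Ehd3 (19 and 51) had more Kdr, the main VEGF receptor gene (1478 and 1736 CPM against 397 and 439 CPM), and less Plvap (597 and 512 CPM). Cells with Slc14a1 (62 and 72) had most Aqp1 (4625 and 3053 CPM), and cells with Gkn3, Stmn2 or Col8a1 (60 and 101) most Mgp (3473 and 3500.3 CPM).

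**Figure D3:**
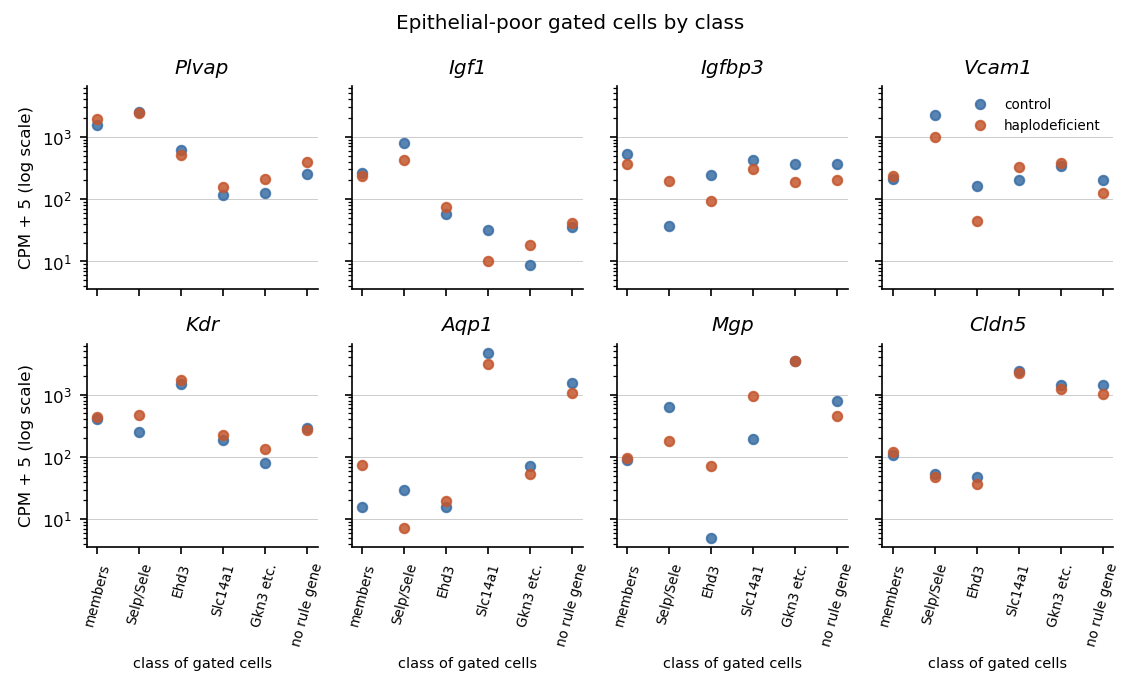
CPM plus 5 (y axis, log scale) of 8 genes in epithelial-poor gated cells by class (x axis), 1 point per library; Gkn3 etc. stands for Gkn3, Stmn2 or Col8a1. Plvap was highest in the Selp/Sele class (2470 and 2357 CPM) and in members (1525 and 1887 CPM) in both libraries.

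Quiescent genes of capillary endothelium lay on both sides of 0 between the libraries once tubule-bearing cells were set aside. Of 30 genes listed, 27 were eligible in epithelial-poor members, 16 of them higher and 11 lower in the haplodeficient library, with a median log2 ratio of 0.14 (all 3768 eligible genes had -0.01, with 49.3% above 0). None met the size rule, beside 0.929% of all genes on the high and 1.75% on the low side. By those shares few or none of 27 genes would be past it. Summed over the list, members had 17514 CPM in the control and 19357 CPM in the haplodeficient library. Per cell of at least 1000 UMIs, the list took a median of 1.85% of UMIs (quartiles 1.38 and 2.34) in 67 control cells and 2.02% (1.57 and 2.45) in 211 haplodeficient cells. Both quartiles and the median lay higher in the haplodeficient cells, and the quartile ranges overlapped.

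Among flow and bone morphogenetic protein genes, Klf2, the shear-stress transcription factor gene, had 1244 CPM among control members (interval 1118 to 1380.3), against 1596 CPM among haplodeficient members (1516 to 1680.1) (log2 ratio 0.36). Its relative Klf4 had 780.0 and 653 CPM (-0.26), and 0.05 without the cell of each library holding most of it. Id1 and Id3, targets of that pathway, were at 295 and 392 CPM (0.40) and 727 and 1009 CPM (0.47), and the intervals of Id3 did not overlap. Of its receptors, Eng was at 576 and 668 CPM (0.21), Acvrl1 at 112 and 111 CPM (-0.01) and Bmpr2 at 253 and 194 CPM (-0.38). The nitric oxide synthase gene Nos3 was at 94.9 and 115 CPM (0.26).

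Ramp2, which with Calcrl forms the adrenomedullin receptor, had the largest value of the list at 0.83, with 506 CPM among control members (interval 427 to 596, 144 UMIs), against 903 CPM among haplodeficient members (842 to 966, 834 UMIs). Calcrl lay on the other side (717 and 501 CPM, -0.51), so the ratios of the partners had opposite signs. Igfbp3, a secreted binder of insulin-like growth factors, was lowest, with 516 CPM among control members (interval 436 to 607, 147 UMIs), against 359 CPM among haplodeficient members (322 to 400.2, 332 UMIs) (-0.52). Tek and Tie1, the angiopoietin receptor genes, were at 664 and 570.4 CPM (-0.22) and 323 and 312 CPM (-0.05), and Ptprb, the phosphatase that restrains Tek, at 847 and 971 CPM (0.20). The VEGF receptor genes Kdr and Flt1 were at 397 and 439 CPM (0.14) and 1922 and 1695 CPM (-0.18).

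The genes of capillary lipid handling gave 2480.4 and 3023 CPM for Fabp4, a fatty acid binding protein gene (0.28), and 397 and 378 CPM for Gpihbp1, which anchors lipoprotein lipase on capillaries (-0.07). Plvap had a log2 ratio of 0.31, and of caveolar genes Cavin3 was at 411 and 582 CPM (0.50) and Cav1 at 119 and 134 CPM (0.16). The Cldn5 value of 0.19 turned to -0.34 without the single cell of each library with most of it, which held 50 of 108 UMIs in the haplodeficient library.

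Over all 380 members the same list read very differently. There 22 of 24 eligible genes were higher in the haplodeficient library and 14 met the size rule, the median was 1.02, and all 4008 eligible genes had a median of 0.02, with 3.39% past the rule on the high and 3.94% on the low side. Plvap alone went from 353 and 971 CPM over all members (1.45) to the 0.31 given above. In the other gated cells, restricted in the same way, the list median was -0.26, with 5 of 28 genes higher. Members had the higher log2 ratio for 20 of the 27 genes, against 46.9% of all genes. The difference between the 2 kinds of cell was not tested.

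Angiogenic genes as a group did not stand higher in either library. Of 33 genes listed, 21 were eligible in epithelial-poor members, 7 higher and 14 lower in the haplodeficient library, with a median log2 ratio of -0.11. The size rule was met by 1 on the high and 2 on the low side. Of all eligible genes, 49.3% were above 0, and 0.929% and 1.75% met the rule on the high and low side. The list summed to 8063 CPM in the control and 7982 CPM in the haplodeficient library, and took a median of 0.709% of a cell's UMIs in the control and 0.71% in the haplodeficient cells of at least 1000 UMIs. Over all members the median was 0.58 over 17 eligible genes. In other epithelial-poor gated cells it was 0.15 over 22.

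The tip-cell gene Esm1, which encodes the secreted proteoglycan endocan (ENSMUSG00000042379, chr13:113209659-113218098, plus strand, in GRCm38), was the lowest of the list. It had 274 CPM among control members (interval 217 to 342, 78 UMIs), against 77.9 CPM among haplodeficient members (61.0 to 98.1, 72 UMIs), a log2 ratio of -1.75, and -1.69 without the cell of each library with most of it. After thinning to 1000 UMIs the share of epithelial-poor members with an Esm1 UMI was 20.9% (11.9 to 32.6) (control) and 6.16% (3.32 to 10.3) (haplodeficient) (unthinned 31.9% and 17.0%), beside 0.155% (0.0188 to 0.559) and 0.387% (0.200 to 0.675) of leukocytes. In the other gated cells Esm1 had a log2 ratio of -0.14. Over all members it was at 60.6 and 37.5 CPM (-0.62).

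Dll4, the Notch ligand gene of tip cells (ENSMUSG00000027314, chr2:119325784-119335962, plus strand), had 126 CPM among control members (interval 88.6 to 175, 36 UMIs), against 59.5 CPM among haplodeficient members (44.8 to 77.5, 55 UMIs) (-1.03). The value was -0.96 without the cell with most of it, just under the size rule. Thinned shares of members with a Dll4 UMI were 11.9% (5.30 to 22.2) and 8.53% (5.13 to 13.1), so the detection shares overlapped. The Notch list had a median of -0.51 over 5 eligible genes of 12. The Notch receptor genes Notch1 and Notch4 were at 218 and 152 CPM (-0.51) and 102 and 61.7 CPM (-0.68), and Hes1, a target of Notch and other pathways, at 288 and 399 CPM (0.46).

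Other sprouting genes were close to absent. Apln, the ligand gene for Aplnr, had 5 and 13 UMIs, Angpt2 8 and 5, Pgf 5 and 5, Cxcr4 3 and 3, and Kcne3 1 and 1, too few for a comparison. Flt4, the VEGF-C receptor gene, was at 116 and 76.8 CPM (-0.56), the VEGF co-receptor genes Nrp1 and Nrp2 had log2 ratios of -0.05 and -0.11, and Ccnd1, a cyclin gene, was at 84.3 and 52.0 CPM (-0.65). Mki67 had 0 UMIs in 69 control cells and 2 in 218 haplodeficient cells, and Top2a 1 and 12, few UMIs of either proliferation gene in both libraries.

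Of 10 eligible basement membrane genes, 6 were higher and 4 lower in the haplodeficient library, with a median of 0.09. On the high side 1 met the size rule (against 0.929% of all genes). Col15a1, a collagen of the outer basement membrane (ENSMUSG00000028339, chr4:47208161-47313167, plus strand), had 38.6 CPM among control members (interval 19.3 to 69.2, 11 UMIs), against 97.4 CPM among haplodeficient members (78.3 to 119.7, 90 UMIs) (1.23). The control value rests on 11 UMIs, the log2 ratio was 0.89 in members with 0 epithelial UMIs, under the size rule, and the thinned shares of cells with a UMI, 2.99% (0.364 to 10.4) and 8.06% (4.76 to 12.6), overlapped. Col4a1 and Col4a2, the main basement membrane collagens, were at 1058 and 1155 CPM (0.13) and 597 and 696 CPM (0.22), and Sparc, a matrix protein gene, at 1904 and 2173 CPM (0.19). The laminin gene Lama4 (-0.32) and the nidogen gene Nid1 (-0.25) were a little lower in the haplodeficient library.

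**Figure D4:**
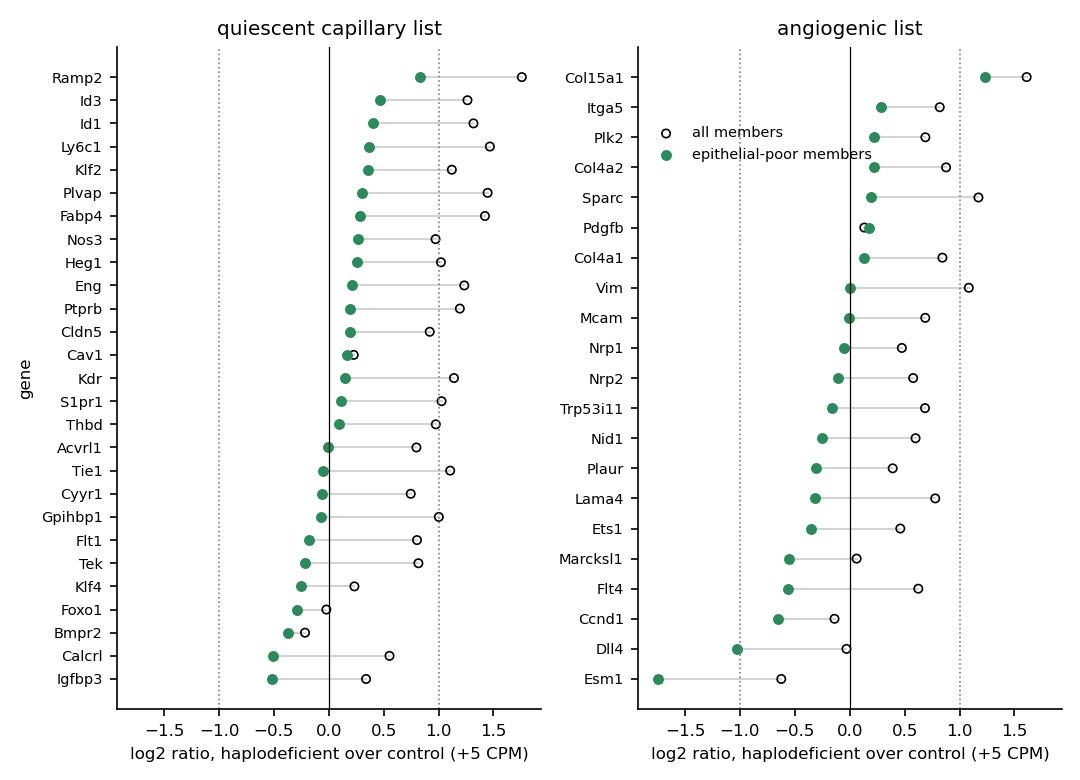
Log2 ratio of haplodeficient over control CPM (x axis, after adding 5 CPM) for each quiescent capillary gene (left, y axis) and angiogenic gene (right) eligible in epithelial-poor members, with filled points for epithelial-poor and open points for all members; dotted lines mark -1 and 1. Most open points lie to the right of the filled ones, and Esm1 (-1.75) and Dll4 (-1.03) are the filled points below -1.

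Within the members, cells with an Esm1 UMI had more Dll4 and Flt1 than cells without one in both libraries, with intervals apart. They were 22 of 69 control and 37 of 218 haplodeficient epithelial-poor members, and were deeper (medians 3300.5 and 4181 UMIs, against 2630 and 3014 in cells without one), which favours detection. Dll4 was at 220.4 CPM (135 to 340.4) with and 82.5 CPM (47.2 to 134) without Esm1 in the control, and at 127 CPM (83.8 to 185) and 39.3 CPM (26.1 to 56.9) in the haplodeficient library. Igfbp3 was at 926 CPM (738 to 1146) against 325 CPM (249.7 to 416) among control cells, whereas it was at 433 CPM (349 to 532) against 337 CPM (296 to 383), which overlap, in the haplodeficient library. Flt1 was at 2314 CPM (2012 to 2649) against 1738 CPM (1558 to 1934) among control cells, and at 1927 CPM (1745 to 2123) against 1626 CPM (1534 to 1722) in the haplodeficient library. Kdr differed in the control (683 CPM (524 to 876) against 263 CPM (196 to 346)) and overlapped in the haplodeficient library (504 CPM (413 to 609) against 420.2 CPM (374 to 471)). Plvap was higher with Esm1 in the control and lower with it in the haplodeficient library. The angiogenic list without Esm1 summed to 8497 CPM (7907 to 9118) against 7458 CPM (7079 to 7853), and to 9715 CPM (9301 to 10144) against 7363 CPM (7165 to 7565). The quiescent list was also higher with Esm1 in the control, at 19925 CPM (19017 to 20865) against 16386 CPM (15821 to 16966). In the haplodeficient library its sums overlapped, at 19176 CPM (18592 to 19775) against 19411 CPM (19089 to 19738). In the control, cells with Esm1 were thus not set apart by angiogenic genes alone.

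Members also divided by the gene that admitted them. Of epithelial-poor members, 19 of 69 control and 67 of 218 haplodeficient cells had an Aplnr UMI, 48 and 149 had Rgcc without Aplnr, and 2 and 2 had Nav3 alone. Cells with Aplnr had a higher sum of angiogenic genes than cells with Rgcc and no Aplnr, which may also hold Nav3. The sums were 11463 CPM (10683 to 12286) against 6857 CPM (6505 to 7223) among control cells, and 8983 CPM (8657 to 9318) against 7486 CPM (7268 to 7710.2) in the haplodeficient library. Between the libraries the sum was lower in haplodeficient Aplnr cells and a little higher in haplodeficient Rgcc cells. Mcam, an endothelial adhesion gene, was at 258 CPM (153 to 408) against 43.4 CPM (19.8 to 82.4) among control members, and at 109.8 CPM (76.5 to 153) against 87.9 CPM (65.6 to 115) in the haplodeficient library. The quiescent list summed to 16679 CPM (15735 to 17665) and 18005 CPM (17432 to 18592) in the control, which overlap, and to 20254 CPM (19763 to 20754) and 19019 CPM (18670 to 19374) in the haplodeficient library. Before the epithelial limit, the cells with Nav3 alone, 7 and 8, had a median of 42770 and 15368 UMIs and 4.15 and 60.6 CPM of Plvap.

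Egln3, the targeted gene, encodes the prolyl hydroxylase PHD3, which uses oxygen to mark hypoxia-inducible factors (ENSMUSG00000035105, chr12:54178981-54203860, minus strand). In epithelial-poor cells it had 63.2 CPM among control members (interval 37.5 to 99.9, 18 UMIs), against 34.6 CPM among haplodeficient members (23.7 to 48.9, 32 UMIs), a ratio of 0.548 (0.298 to 1.04). Tubule-bearing cells included, it had 22.0 CPM among control members (interval 15.1 to 31.1, 32 UMIs), against 20.7 CPM among haplodeficient members (15.0 to 27.9, 43 UMIs), a ratio of 0.940 (0.581 to 1.53). Both intervals include 1, and the labels do not say whether a recombined allele still gives the counted 3′ transcript, so the values are no check of the labels. With cells thinned before the gate the ratio over the members found was 0.209. An Egln3 UMI was seen in 15 of 69 and 22 of 218 epithelial-poor members, and after thinning in 5.97% (1.65 to 14.6) and 4.74% (2.30 to 8.54), against 1.01% (0.538 to 1.72) and 1.39% (1.00 to 1.86) of leukocytes.

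All 4 eligible oxygen-sensing genes of 9 were lower in the haplodeficient library, with a median of -0.48 and none past the size rule. Of all eligible genes 49.3% were above 0, and 0.929% and 1.75% met the rule on the high and low side. With so few genes, these counts do not show a shift of the list. Hif1a, a hypoxia-inducible factor subunit gene, had 189.7 CPM among control members (interval 143 to 248, 54 UMIs), against 102 CPM among haplodeficient members (82.2 to 125, 94 UMIs) (-0.87, with intervals apart). In the other gated cells it was level (-0.01). Epas1, which encodes HIF-2 alpha, was at 481 and 371 CPM (-0.37), their partner Arnt at 77.3 and 49.8 CPM (-0.59) and Egln1 at 70.3 and 67.1 CPM (-0.06). Egln2 had 7 and 46 UMIs, and Vhl 2 and 11. HIF target genes had a median of -0.05 over 10 of 21 eligible genes, with 4 higher and 6 lower and none past the size rule, from Ndrg1 (-0.56, and 0.00 without the cell with most of it) to Higd1a (0.58). Vegfa had 3 and 8 UMIs. Glycolysis genes had a median of 0.15 over 10 of 15, led by Gapdh (0.42).

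Interferon-stimulated genes, which cells turn on when type I or II interferon reaches them, were mostly higher in the haplodeficient library. In epithelial-poor members 28 of 31 eligible genes of 33 were higher, the median log2 ratio was 0.71, and 6 met the size rule on the high side (against 0.929% of all genes) and none on the low. The list summed to 9303 CPM in the control and 14552 CPM in the haplodeficient library. Per cell of at least 1000 UMIs it took a median of 0.973% of UMIs (quartiles 0.635 and 1.33) in the control and 1.46% (1.10 and 1.80) in the haplodeficient library. Both quartiles and the median lay higher there, and the quartile ranges overlapped. The list was chosen with earlier results of these libraries known, so its direction is not independent evidence.

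Ifit2, an antiviral RNA-binding protein gene, had 45.7 CPM among control members (interval 24.3 to 78.1, 13 UMIs), against 171 CPM among haplodeficient members (145 to 199.9, 158 UMIs) (1.80). Zbp1, a sensor of Z-form nucleic acid, had 52.7 CPM among control members (interval 29.5 to 86.9), against 150.4 CPM among haplodeficient members (126 to 178) (1.43), and Igtp, an immunity-related GTPase gene, 31.6 CPM among control members (interval 14.5 to 60.02), against 80.1 CPM among haplodeficient members (62.9 to 101) (1.22). Xaf1 was at 109 and 241 CPM (1.11) and Ifit3 at 144 and 306 CPM (1.06). The most abundant was Ifitm3, which blocks viral entry, at 3152 and 5378 CPM (0.77), followed by Bst2, which tethers virions, at 601 and 1160.3 CPM (0.94). A Bst2 UMI remained after thinning in 44.8% (32.6 to 57.4) of the control members, against 65.9% (59.1 to 72.2) of the haplodeficient ones. The 3 genes on the low side were Irgm1 (-0.03), Ddx58 (-0.11) and Iigp1 (-0.11), with overlapping intervals.

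The same genes were higher in the haplodeficient library elsewhere. In cells outside the endothelial gate, a mixture whose makeup differs between the libraries, all 31 had a log2 ratio above 0 (74.4% of all genes did) with a median of 0.98. Other lists leaned the same way there, with 25 of 27 quiescent genes (median 0.91) and 19 of 21 angiogenic genes (0.70) above 0. Glycolysis genes did not, with 3 of 10 above 0 (-0.06). In the other epithelial-poor gated cells 23 of the 31 interferon genes had a log2 ratio above 0, with a median of 0.39. Members had the higher ratio for 26 of the 31 genes, against 46.9% of all genes, and the difference was not tested. The 11 macrophage and monocyte markers summed to 98.4 CPM and 273 CPM in epithelial-poor members, with Ptprc at 0 by the rule, beside 1106 and 5354 CPM in free RNA. Their part in the interferon values was not tested. The expected free-RNA part of Ifit2, Zbp1, Igtp, Xaf1 and Ifit3, which met the size rule, was at most 2.39%.

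**Figure D5:**
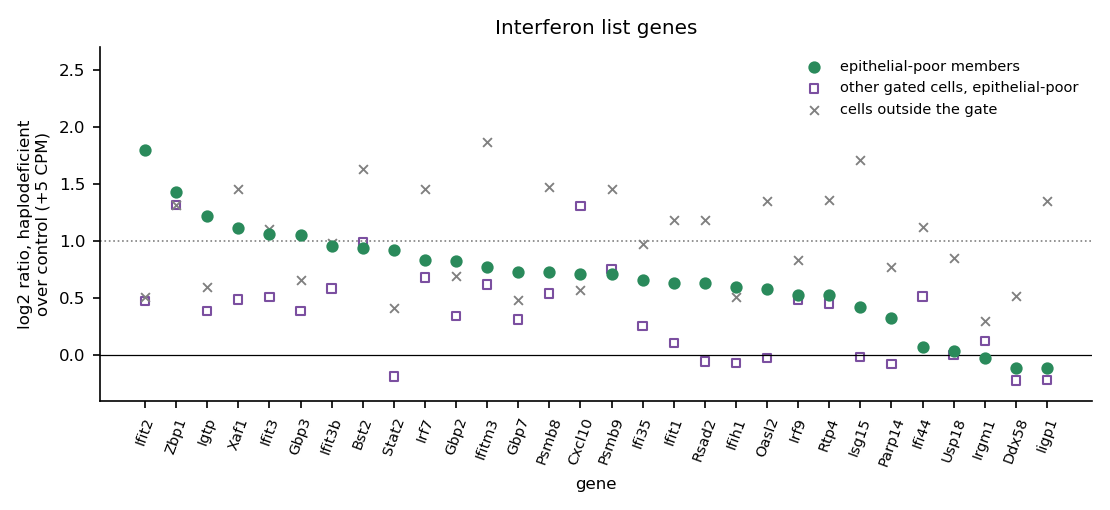
Log2 ratio of haplodeficient over control CPM (y axis, after adding 5 CPM) for 30 eligible interferon genes (x axis, ordered by the members' value) in epithelial-poor members (filled circles), other epithelial-poor gated cells (open squares) and cells outside the gate (crosses). Ifit2 (1.80) and Zbp1 (1.43) are highest in members, and the 3 genes at right lie just below 0.

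Promoter sequence was read for this group because most of its members were higher in the same library. Windows of 300 bases, from 250 before to 50 after a transcription start, came from RefSeq on GRCm38.p6, and 27 of the 33 genes had one or more. The core of the interferon-stimulated response element, GAAA followed by any 2 bases and GAAA, was searched on both strands, with no allowance for mismatches and with overlapping matches counted separately. It occurred in 17 of the 27 genes (63.0%), against 3.99% of 27025 genes with a window. The list was made of known interferon-stimulated genes, so this share describes the list and not the difference between the libraries. It was in 0 of 20 quiescent genes with a window and in 1 of 27 angiogenic ones. The 3 windows shown are those of Igtp and Ifit3, which met the size rule, and of Irgm1, which holds the motif and had a log2 ratio of -0.03. Capitals mark the motif, and each is written 5′ to 3′ on the gene's own strand.
Igtp (chr11:58199306-58199605, plus strand): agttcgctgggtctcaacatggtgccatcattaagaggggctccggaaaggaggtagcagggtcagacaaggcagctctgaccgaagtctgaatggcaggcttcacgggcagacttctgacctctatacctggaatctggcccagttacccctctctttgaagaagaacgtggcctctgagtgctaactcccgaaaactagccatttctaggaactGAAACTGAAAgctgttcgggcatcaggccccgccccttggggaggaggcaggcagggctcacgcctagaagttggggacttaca
Ifit3 (chr19:34583279-34583578, plus strand): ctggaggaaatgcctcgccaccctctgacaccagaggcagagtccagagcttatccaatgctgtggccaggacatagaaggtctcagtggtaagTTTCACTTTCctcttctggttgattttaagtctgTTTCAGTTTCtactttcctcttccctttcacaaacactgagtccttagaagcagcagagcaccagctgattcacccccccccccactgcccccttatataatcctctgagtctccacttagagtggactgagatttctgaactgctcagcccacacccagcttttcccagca
Irgm1 (chr11:48871371-48871670, minus strand): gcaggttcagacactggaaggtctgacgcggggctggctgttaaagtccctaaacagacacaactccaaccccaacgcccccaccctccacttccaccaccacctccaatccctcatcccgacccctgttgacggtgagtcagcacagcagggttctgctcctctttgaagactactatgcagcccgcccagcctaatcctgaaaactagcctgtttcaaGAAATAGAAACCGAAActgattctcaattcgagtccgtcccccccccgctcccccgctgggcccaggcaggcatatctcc
Ifit2 and Xaf1 met the size rule without this motif in their windows. A match describes these letters in this window and is not a bound site.

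All 11 eligible MHC class I genes of 12 were higher in the haplodeficient library, with a median of 0.51, from H2-Q7 (0.08) to the proteasome activator gene Psme2 (0.80), and none met the size rule. The heavy chain gene H2-D1 was at 2006 and 3177 CPM (0.66) and the light chain gene B2m at 2013 and 2204 CPM (0.13). All 5 eligible class II genes were higher too, with a median of 0.79. H2-Aa had 116 CPM among control members (interval 79.8 to 163, 33 UMIs), against 280.3 CPM among haplodeficient members (247 to 317, 259 UMIs) (1.24) and H2-Eb1 had 155 CPM among control members (interval 112 to 208, 44 UMIs), against 344 CPM among haplodeficient members (307 to 384, 318 UMIs) (1.13). The expected free-RNA part was 20.5% and 12.9% of H2-Aa and 17.1% and 13.9% of H2-Eb1 UMIs in the control and haplodeficient members, and the other gated cells showed like ratios for both (1.04 and 1.14).

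Endothelial transcription factors leaned lower, with 12 of 15 eligible genes below 0 and a median of -0.25, where 49.3% of all eligible genes were above 0. The lean was not particular to members. In other epithelial-poor gated cells 4 of these 15 genes were above 0, with a median of -0.11. Erg, a regulator of endothelial identity, was at 316 and 181 CPM (-0.79) and its relative Fli1 at 499 and 331 CPM (-0.58), each short of the size rule with intervals that did not overlap. Erg was also lower in other gated cells (-0.67), and Fli1 was level there (-0.01). Meox1, a homeobox gene, went the other way, with 42.2 CPM among control members (interval 21.8 to 73.6, 12 UMIs), against 95.2 CPM among haplodeficient members (76.4 to 117, 88 UMIs) (1.09). Sox18 and Sox17 were at 0.43 and 0.38. Over all members the list median had the opposite sign, 0.46.

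Other lists had medians from -0.20 to 0.13 in epithelial-poor members. Vasoactive genes had a median of -0.04, with Npr3, a natriuretic peptide clearance receptor gene, lowest (102 and 54.1 CPM, -0.85) and Ramp2 highest. Coagulation genes had -0.19, with Plat, the tissue plasminogen activator gene, at 425 and 212 CPM (-0.99). Flow-responsive genes had 0.11, junction genes 0.12, basement membrane genes 0.09, caveolar genes 0.13 (highest Nostrin, 1.00) and TGF-beta and mesenchymal genes -0.20, with Zeb2 at -1.17. Dissociation stress genes had 0.02, from Klf6 (-0.92) to Ier3 (0.58). Venular and adhesion genes had 0.07 and were led by Lrg1.

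Between the libraries as a whole, 35 genes of 3768 met the size rule on the high and 66 on the low side in epithelial-poor members. Over all members 136 and 158 of 4008 did. On the high side the 10 largest were Gdpd3, Rpl29, Ifit2, Lrg1, Calca, Wdr83os, Tbxa2r, Rtl8a, Zbp1 and Ripply3. Gdpd3, a lysophospholipase gene, had 10.5 CPM among control members (interval 2.17 to 30.8, 3 UMIs), against 99.6 CPM among haplodeficient members (80.3 to 122, 92 UMIs) (CPM ratio 9.45 (3.13 to 46.7)), and the ribosomal protein gene Rpl29 had 134 CPM among control members (interval 94.5 to 183), against 579 CPM among haplodeficient members (531 to 630.3). Their log2 ratios of 2.75 and 2.08 had like values in other gated cells (2.00 and 1.97) and outside the gate (2.37 and 2.12). Of the 35 genes, 33 had the same sign in other gated cells and 7 of them a log2 ratio of at least 1 there. Of all 3768 eligible genes, 1985 had a log2 ratio above 0 in other gated cells.

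Lrg1, a secreted glycoprotein gene known from injured endothelium (ENSMUSG00000037095, chr17:56119678-56122001, minus strand), had 84.3 CPM among control members (interval 54.0 to 125, 24 UMIs), against 282 CPM among haplodeficient members (249 to 319, 261 UMIs) (1.69). Its log2 ratio in other gated cells was 0.83. A UMI of it remained after thinning in 8.96% (3.36 to 18.5) of the control members, against 21.8% (16.4 to 28.0) of the haplodeficient ones, beside 1.63% (1.01 to 2.48) of control and 5.12% (4.37 to 5.96) of haplodeficient leukocytes, which differ in the same direction. Calca, the calcitonin and CGRP gene, had 63.2 CPM among control members (interval 37.5 to 99.9, 18 UMIs), against 213 CPM among haplodeficient members (184 to 245, 197 UMIs) (1.68), but its UMIs lay in just 6 and 22 cells, and without the top cell of each library the value was 2.54. Tbxa2r, the thromboxane receptor gene (28.1 and 86.6 CPM, 1.47), and Ripply3 (38.6 and 113 CPM, 1.43) were less far apart in other gated cells (0.57 and 0.98).

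Tubule transcripts led the low side. Among the 10 lowest were Kap (457 and 9.74 CPM, -4.97), Gpx3, Acsm2, Slc34a1, Cltrn, Slc4a4, Ass1 and Fxyd2, all genes of the proximal tubule or tubule transport, with expected free-RNA parts in control members from 44.6% (Acsm2) to 186% (Kap). Mitochondrially encoded genes were also among the 66, and their share over all eligible genes was not counted. The median mitochondrial share of UMIs was lower in the haplodeficient library in all kept cells (10.2% control, 2.72% haplodeficient). It was lower in epithelial-poor members too (3.62% and 2.22%). In other gated cells 55 of the 66 had the same sign, where 1985 of all 3768 eligible genes had a log2 ratio above 0. The neutrophil chemokine gene Cxcl2 (-2.09), also among the 10, had its control UMIs in 3 cells and went to 0.72 without the top cell of each library. Esm1, Dll4 and Zeb2, given above, were also on this side. Over all members the 10 lowest were likewise tubule genes, from Kap (-7.54) to Slc34a1 (-3.23), and the highest were Lrg1 (2.49), Calca (2.22), Rpl29 (1.94) and Ifi27l2a (1.86).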

How the data were processed

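Droplet 3′ single-cell RNA-seq of 2 dissociated mouse kidney suspensions was read from the unfiltered matrices. The deposited values are raw UMI counts, one for each pair of gene and barcode. The authors obtained them with Cell Ranger 4 per the file headers, on mm10 per the submitters' processing notes. The labels mention cell hashing, but every feature in the files was a gene. Totals were 134190236 and 114668145 UMIs over 32285 genes in the control and haplodeficient library.

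Barcodes of at least 500 UMIs, 200 genes and at most 50% mitochondrial UMIs were kept, and members were found by the rule above. Doublets were scored with Scrublet (scanpy 1.11.5), the highest scores being marked at 0.8% per 1000 cells, and were kept. UMIs were summed over members of a library and scaled to CPM, with exact Poisson intervals, exact Clopper-Pearson intervals for shares, Newcombe intervals for differences of shares and exact conditional intervals for CPM ratios, all at 95%. Log2 ratios were taken after adding 5 CPM. A gene was eligible at a mean of at least 50 CPM and 30 UMIs over both libraries. The size rule asked for a log2 ratio of 1 or more in either direction and for intervals that did not overlap. The 16 rule genes were left out. With 1 library per group there was no test and no adjusted p-value.

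Free RNA was profiled from barcodes of 1 to 100 UMIs. Shares of cells with a UMI were compared after thinning to 1000 UMIs. The script was tested on simulated counts. The genes named are the 10 highest and 10 lowest past the size rule, between libraries and against other gated cells, all eligible quiescent and angiogenic genes, the 3 highest and lowest of other lists, and oxygen-sensing genes. Some of these genes are not reported here. Genes given with UMIs only, further genes of the interferon, MHC and class comparisons, and the limit of 2 epithelial UMIs were chosen after values were seen. The members and lists were chosen with earlier results of these data known. Alternatives covered cell filters, gate, rule, depth, doublets, scaling, cell weight, free RNA, pseudocount and low values. Numpy 2.4.6, scipy 1.17.1, pandas 2.3.3 and matplotlib 3.10.9 were used.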

Additional observations from a re-analysis of the deposited data

How the results depend on the processing

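Several results over all members changed with the processing, and the cause was not tested beyond the construction of each alternative. With a UMI minimum of each library's own, the difference in the members' share of gated cells was 3.198 points and the quiescent median 0.78. With at most 2 epithelial UMIs, a limit chosen after the data were seen, 101 genes in place of 294 met the size rule, the quiescent median was 0.14, the angiogenic -0.11 and the Egln3 ratio 0.548, and medians were -0.0434 for vasoactive, -0.19 for coagulation and -0.25 for transcription factor genes, with Tie1 at -0.0515, Gpihbp1 at -0.0708 and Vim at -0.00067. With cells thinned to 1000 UMIs before the gate, 32 genes met the rule, the quiescent median was -0.0207, the angiogenic 0.13 and the Egln3 ratio 0.209; vasoactive genes had -0.0938, coagulation -0.24, venular -0.0170 and transcription factors -0.28, with Tie1 at -0.11, Eng at -0.0344, Plvap at -0.0207 and Gpihbp1 at -0.11. The mean of per-cell CPM gave 0.38 for quiescent and 0.26 for angiogenic genes. A gate of at least 5 UMIs gave a quiescent median of 0.74. Subtracting free RNA gave 0.74 for it, -0.14 for stress genes, and 0.38 for Pck1, 1.36 for Slc34a1, 2.29 for Cltrn and 2.00 for Ass1. A rule of at least 2 UMIs gave 495 genes past the size rule, a mean of at least 10 CPM 740, and no minimum but 1 UMI 960, with an angiogenic median of 0.26. In epithelial-poor members Cxcl2 was at 0.72 without the cell of each library with most of it, and 7 alternatives, with no thinning before the gate, own UMI minimum or stricter gate among them, gave 95 to 149 genes past the size rule, a quiescent median of 0.08 to 0.16, an interferon median of 0.65 to 0.78 and an Egln3 ratio of 0.488 to 0.590. The angiogenic median there ranged from -0.37 to 0.01, and those of VEGF, vasoactive, basement membrane, venular, HIF target and stress genes also crossed 0. No paired analysis was possible because each group has 1 library. Depth limits genes under the eligibility minimum, tip-cell genes such as Apln and Angpt2 among them, and shares in the shallower cells.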
